A study of Mus musculus with 2 samples.

Results

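The adrenergic receptors and the cAMP pathway behind them were examined in 52 genes, taken by gene symbol from a list of pathway members and sorted into 11 roles. The 52 genes fill 53 of the 35798 rows of the deposited expression table, because Pde4d has a pair of rows, and they are among 19975 protein-coding genes that a row names singly. RNA was sequenced from mouse bone marrow cells sorted as CD45-, CD31- and Ter119- and positive for GFP under the nestin promoter (Nes-gfp), a reporter of the perivascular stroma that houses haematopoietic stem cells. One library came from adult C57BL/6 mice labelled Nes-gfp, littermates that served as the control, and the other, called the V617F library, from adult C57BL/6 mice labelled Nes-gfp;Mx1-cre;JAK2-V617F. JAK2 V617F is the activated kinase found in myeloproliferative neoplasms, and Mx1-cre is a recombinase switched on by interferon. All mice received pIpC, an RNA analogue that induces interferon, and cells were taken 6 weeks later. Each library pooled 3 animals of its genotype and there was 1 library per genotype, so no value below has a replicate error and no test between genotypes was possible. The control label names no Cre, so effects of Cre and of the mutation cannot be told apart. In such bulk libraries, fewer cells of a type and less RNA per cell cannot be told apart either.

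Sympathetic nerve fibres in bone marrow release noradrenaline onto stromal cells. Beta-adrenergic receptors couple through the stimulatory G protein to adenylyl cyclases, which make cAMP, whereas alpha-2 receptors couple to inhibitory G proteins and alpha-1 receptors mainly to phospholipase C. cAMP releases the catalytic subunits of protein kinase A (PKA) from its regulatory subunits, and PKA phosphorylates the transcription factor CREB. Phosphodiesterases break cAMP down, and receptor kinases with arrestins switch the receptors off. The beta-3 receptor, encoded by Adrb3, is known as the route by which sympathetic signals lower Cxcl12 in marrow stroma. The series concerns damage to the nerve supply of this niche in myeloproliferative neoplasms, which is the question behind a comparison of the pathway's transcripts.

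Levels are FPKM (fragments per kilobase of transcript scaled to library size), so genes may be set side by side. Steps in the low values put the depth at about 5260000 fragments (control) and 6170000 fragments (V617F). The 7 stromal markers were present in both, with summed levels of 1117 and 872 FPKM, and Nes itself was at 4.84 and 3.00 FPKM. Markers of cells that the sort was meant to remove were also present: the erythroid list summed to 1129 and 728 FPKM, the neutrophil list to 2368 and 2448 FPKM (with 3 of 8 genes, Ngp, Camp and Ltf, at least 2-fold lower in the V617F library), the pan-leukocyte list to 212 and 280 FPKM, the B cell list to 76.9 and 81.3 FPKM and the endothelial list to 27.6 and 31.4 FPKM. Osteoblast markers summed to 3746 FPKM in the control library and 1856 FPKM in the V617F library. Cartilage markers summed to 228 and 1547 FPKM, most of the difference being Prg4, at 20.1 and 1234 FPKM. Schwann cell markers summed to 48.7 and 121 FPKM, most of the difference being S100b, at 22.4 and 76.2 FPKM. In that list 5 of 6 genes had a log2 ratio above 0, but Sox10 (2.30 FPKM in both) and Erbb3 (1.38 and 1.58 FPKM) hardly differed. Macrophage markers summed to 6.84 and 28.8 FPKM. Smooth muscle and pericyte markers summed to 138 and 240 FPKM, mostly Rgs5 and Acta2, and 2 of the 5 genes, Tagln and Cnn1, were lower. Skeletal muscle markers summed to 50.4 and 22.5 FPKM, and adipocyte markers to 98.2 and 106 FPKM. Megakaryocyte markers summed to 8.31 and 53.8 FPKM, with Pf4 and Ppbp listed at 0 in the control. Itga2b, the highest of them in the control, was at 5.30 and 5.09 FPKM, the 1 of 5 genes not higher in the V617F library. Neuronal markers summed to 0.103 and 15.8 FPKM, with Snap25, Syt1, Prph, Nefm and Tubb3 listed at 0 in the control. The part of any of these cells in the values below was not tested.

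All but 1 of the pathway's genes lay within 2-fold between the libraries. A gene was called higher or lower at a 2-fold difference of FPKM + 1, which is 1 on the log2 scale, and this scale understates the difference of low genes. By that measure 0 of the 52 genes were higher in the V617F library and 1 was lower, the phosphodiesterase gene Pde4c. Among all protein-coding genes with a row, 6.24% were higher and 5.42% lower. Over protein-coding genes at a mean of 5 FPKM or more, the shares were 5.10% and 6.84%, and 33 pathway genes lay at that level with 0 called in either direction. The median log2 ratio of the 52 genes was 0.10, with 29 above 0, 22 below and 1 at 0, beside a median of 0.00 over all protein-coding genes. The median size of the difference, whatever its sign, was 0.33 for the 52 genes and 0.25 over all protein-coding genes. Over the protein-coding genes at a mean of 5 FPKM or more it was 0.36, and 0.31 for the 33 pathway genes at that level. Rescaling both libraries to the same FPKM sum multiplied the V617F values by 1.13, moved the median log2 ratio of the protein-coding genes at 5 FPKM or more by 0.17, and turned 7 pathway genes from below to above 0. It also took Adra1b, Adra1d and Prkar2a past 2-fold higher, while the share of all protein-coding genes called higher became 8.17% and lower 4.20%.

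**Figure D1:**
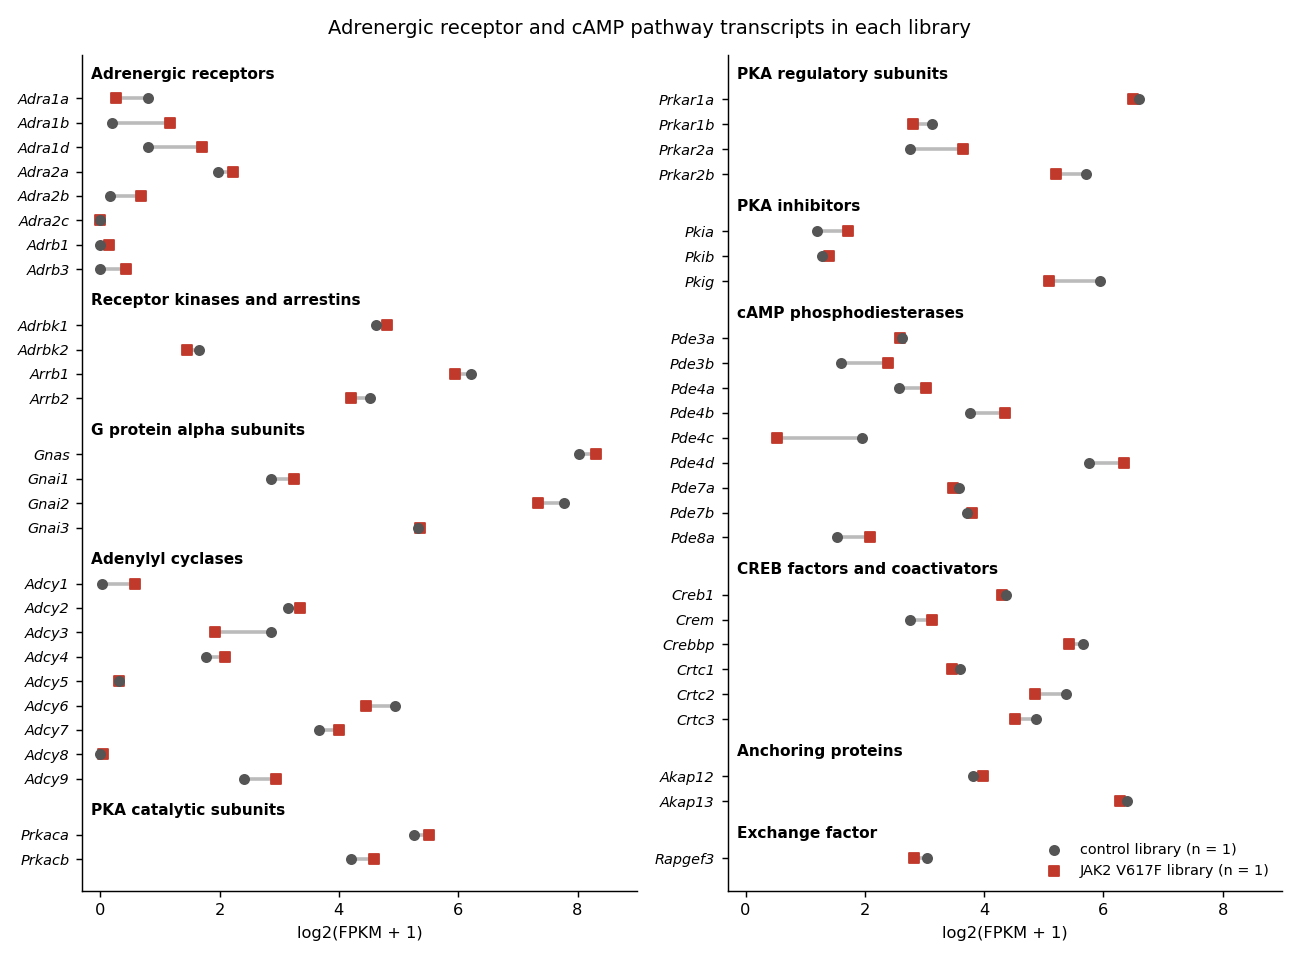
Each row is 1 gene, grouped by role, with its level as log2(FPKM + 1) in the control library (grey circle) and the V617F library (red square), 1 library each. Gnas and Gnai2 lie highest, the adrenergic receptors lie at or below 3.66 FPKM, and Pde4c has the longest bar, from 2.85 to 0.449 FPKM.

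**Figure D2:**
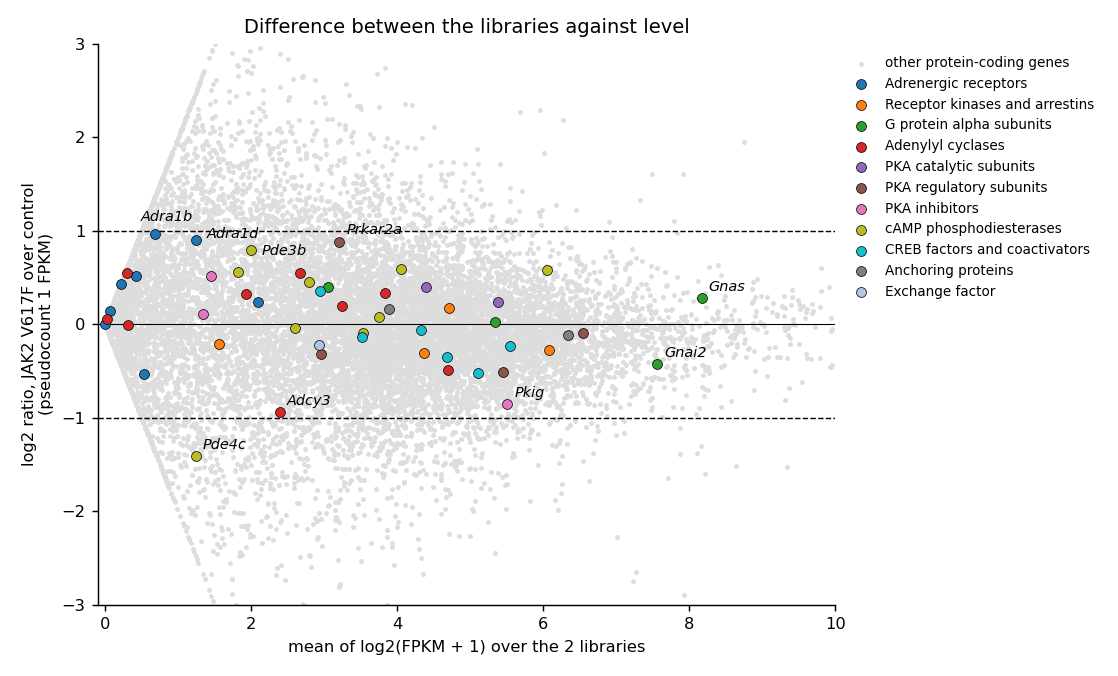
The log2 ratio of JAK2 V617F over control (pseudocount of 1 FPKM) is plotted against the mean level, with pathway genes coloured by role and other protein-coding genes in grey; dashed lines mark 2-fold, and 80 genes beyond the axes are not drawn. Pde4c alone among the 52 coloured points lies outside the dashed lines.

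The adrenergic receptors were of low abundance, with a summed level of 4.66 FPKM in the control library and 8.40 FPKM in the V617F library over 8 genes. Adra2a, the alpha-2A receptor, was the highest in both, at 2.93 and 3.66 FPKM (log2 ratio 0.24), and made up 62.9% and 43.5% of the receptor sum. Its row lies at chr19:54045182-54048982 (GRCm38, plus strand). If all its fragments came from its longest annotated transcript, about 72 and 105 were counted, and their ratio of 1.25 had an exact 95% interval of 0.913 to 1.70. Such intervals cover counting error only, are at their narrowest with the longest transcript, and treat amplified fragments as separate molecules. The interval for Adra2a includes 1.

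The alpha-1 receptors differed from each other in direction. Adra1b was at 0.147 FPKM in the control library and 1.25 FPKM in the V617F library, from about 2 and 24 fragments, a ratio of 8.51 (counting interval from 2.54 to 89.3.) Its log2 ratio with the pseudocount was 0.97, just inside 2-fold, and it passed 2-fold with a pseudocount of 0.1 FPKM (2.45). It also did so under both rescalings (1.07 and 1.02), which raise the V617F values. Adra1d was at 0.733 and 2.25 FPKM, from about 7 and 24 fragments (log2 ratio 0.91, counting interval of the ratio 1.22 to 8.03), and also passed 2-fold with the lower pseudocount (1.49) and after rescaling to the same sum (1.03). Adra1a went the other way, with 0.735 and 0.200 FPKM, about 16 and 5 fragments, and an interval of 0.0763 to 0.761. The intervals of these 3 genes exclude 1, but each rests on fewer than 30 fragments a library. Summed over the 3 genes, alpha-1 transcripts were at 1.61 and 3.69 FPKM. Adra1a thus made up 45.5% of that sum in the control library and 5.4% in the V617F library.

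Of the beta receptors, Adrb3 was listed at 0 in the control library and at 0.345 FPKM in the V617F library, about 6 fragments on its longest transcript. A count of 0 allows up to 3 fragments, which on that transcript is 0.216 FPKM in the control. The row covers chr8:27225776-27229588 on the minus strand. Adrb1, the beta-1 receptor, was listed at 0 and at 0.104 FPKM, about 2 fragments, and a count of 0 allows up to 0.204 FPKM there in the control. Neither gene reached 1 FPKM, so at this depth the libraries hold little on either receptor. The alpha-2 receptor genes Adra2b, at 0.115 and 0.598 FPKM from about 2 and 14 fragments, and Adra2c, listed at 0 in both, stayed below 1 FPKM as well. For Adra2b the ratio was 5.22 (counting interval from 1.37 to 54.1.)

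Of the genes that desensitise receptors, 3 of 4 were more abundant than every adrenergic receptor. Arrb1, which encodes beta-arrestin 1, was at 73.1 FPKM in the control library and 60.4 FPKM in the V617F library (log2 ratio -0.27). Arrb2 was at 21.9 and 17.5 FPKM (-0.31). Adrbk1, the older symbol of Grk2, which phosphorylates occupied receptors, was at 23.7 and 26.8 FPKM (0.17), and its relative Adrbk2 (Grk3) at 2.16 and 1.74 FPKM (-0.20). All 4 lay within 2-fold. Arrb1 gave 77.0% and 77.5% of the arrestin sum and Adrbk1 91.6% and 93.9% of the sum of Adrbk1 and Adrbk2, so the leading gene of each pair was the same in both libraries. Other receptor kinases were also present, with Grk4 at 21.7 and 9.17 FPKM, Grk6 at 17.0 and 10.4 FPKM and Grk5 at 3.40 and 5.11 FPKM.

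G protein alpha subunits were the most abundant role. Gnas, which encodes the stimulatory alpha subunit, was at 260 and 317 FPKM (log2 ratio 0.28), at the 98.8th and 99.1st percentile of protein-coding genes. Gnas is an imprinted locus with several promoters, and its row (chr2:174281237-174346744) spans them all, so the value does not separate its transcripts. The row's locus also overlaps Gm20721, another protein-coding gene, whose reads may not be fully separable. Gnai2, the leading inhibitory subunit, was at 218 and 162 FPKM (-0.43). Gnai2 stayed below 0 under both rescalings, which raise the V617F values and so could not have turned Gnas. Gnai3 was at 39.3 and 40.0 FPKM, with a single annotated transcript, about 642 and 766 fragments, and a ratio of 1.02 (counting interval from 0.915 to 1.13.) Gnai1 was at 6.24 and 8.53 FPKM (0.40). As shares of the 4 genes, Gnas made up 49.7% in the control library and 60.1% in the V617F library, and Gnai2 41.6% and 30.7%.

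**Figure D3:**
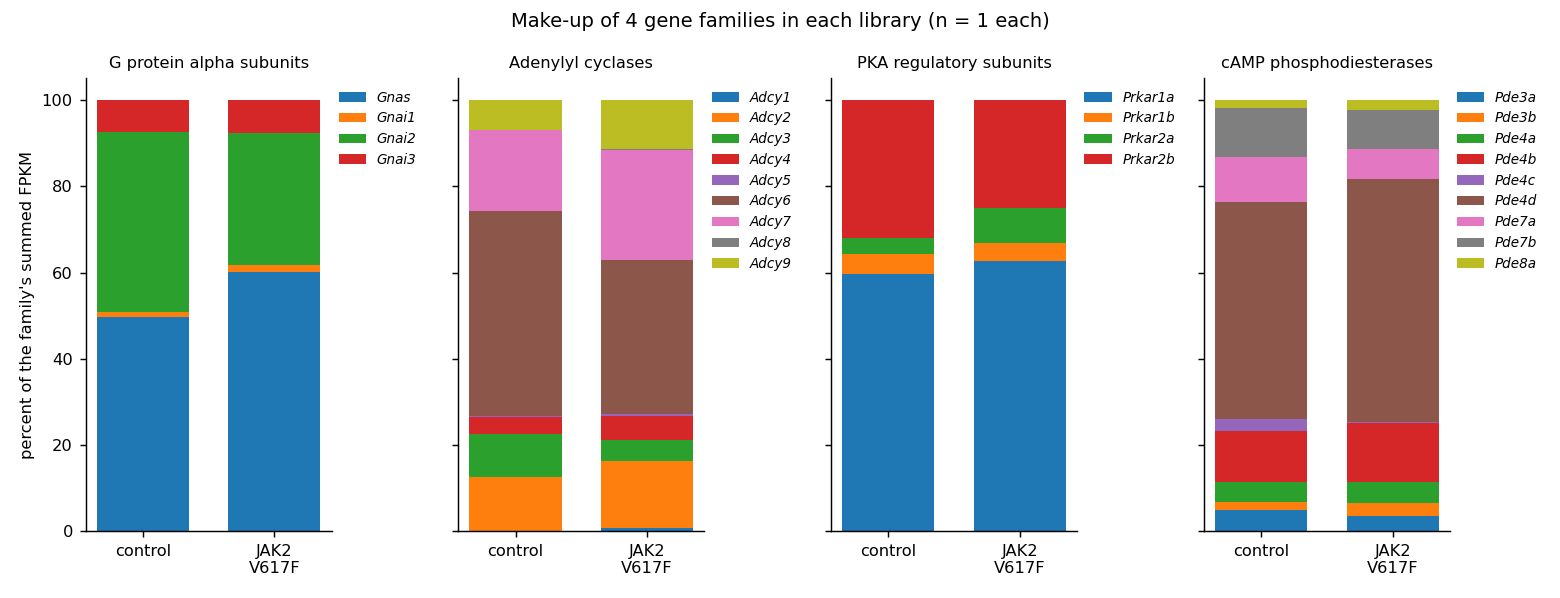
Stacked bars give each gene's percent of the summed FPKM of its family, from 0 to 100, in the control and the V617F library (1 library each). Gnas takes 49.7% and 60.1% of the G protein alpha subunits, Adcy6 takes 47.5% and 35.7% of the cyclases, and Pde4d holds over 50% of the phosphodiesterase sum in both bars.

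Adenylyl cyclases, the enzymes that make cAMP, summed to 62.6 FPKM in the control library and 58.7 FPKM in the V617F library. Adcy6, a cyclase inhibited by calcium and by inhibitory G proteins, was the highest, at 29.7 and 20.9 FPKM (log2 ratio -0.49). Adcy7 followed at 11.8 and 15.0 FPKM (0.33). Adcy2, which like Adcy7 belongs to the cyclases stimulated by G protein beta-gamma subunits, was at 7.86 and 9.15 FPKM (0.20). Adcy9, which responds little to forskolin, was at 4.29 and 6.72 FPKM (0.55). The order of the leading pair was the same in both libraries, with a narrower gap in the V617F library. Adcy2 has 1 annotated transcript, and about 168 and 229 fragments gave a ratio of 1.16 (counting interval from 0.948 to 1.43.) Adcy3 was at 6.29 and 2.80 FPKM (-0.94), just inside 2-fold, and passed it with a pseudocount of 0.1 FPKM (-1.14). The Adcy3 locus also holds Cenpo and Ptrhd1, whose reads may not be fully separable. Adcy4, of the same subfamily as Adcy2 and Adcy7, was at 2.40 and 3.27 FPKM (0.33). The calmodulin-stimulated neural cyclases were below 1 FPKM in both libraries. Adcy8 was listed at 0 in the control library and at 0.0376 FPKM in the V617F library. Adcy1 was at 0.0167 and 0.491 FPKM, from about 1 and 37 fragments, a ratio of 29.5 (counting interval from 5.32 to 1279.) Adcy1 differs in the same direction as the neuronal markers given above, and the part of other cells in it was not tested. Adcy5, the close relative of Adcy6 known from heart and striatum, was at 0.243 and 0.241 FPKM.

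Both catalytic subunits of PKA had log2 ratios above 0, within 2-fold. Both rescalings raise the V617F values, so they could not have turned either gene. Prkaca was at 37.5 and 44.4 FPKM (log2 ratio 0.24) and Prkacb at 17.4 and 23.2 FPKM (0.40). Among the regulatory subunits, which hold the kinase inactive, Prkar1a was the highest at 95.5 and 89.4 FPKM (-0.10, and above 0 after rescaling to the same sum). Prkar2b was at 51.3 and 35.8 FPKM (-0.51), while its paralog Prkar2a was at 5.78 and 11.5 FPKM (0.88). Prkar2a lay just inside 2-fold and passed it after rescaling to the same sum (1.05). The type II pair therefore differed in opposite directions, and Prkar2a made up 10.1% of the type II sum in the control library and 24.3% in the V617F library. Prkar1b, whose locus overlaps Dnaaf5, was at 7.68 and 6.00 FPKM (-0.31).

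Protein kinase inhibitors bind the free catalytic subunit and block it. Pkig was the main one, at 60.3 FPKM in the control library and 32.8 FPKM in the V617F library (log2 ratio -0.86). About 840 and 537 fragments gave a ratio of 0.545 (counting interval from 0.488 to 0.608). That interval excludes 1, but it takes the longest of 9 transcripts and treats amplified fragments as separate molecules. Pkia was at 1.29 and 2.28 FPKM (0.52) and Pkib at 1.44 and 1.64 FPKM (0.11). Pkig gave 95.7% and 89.3% of the inhibitor sum of 63.0 and 36.8 FPKM.

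The cAMP phosphodiesterases held the only called difference among the 52 genes. Pde4c was at 2.85 FPKM in the control library and 0.449 FPKM in the V617F library (log2 ratio -1.41), from about 49 and 9 fragments on its longest transcript, a ratio of 0.157 (counting interval from 0.0676 to 0.322.) Its row lies at chr8:70723720-70751186 on the plus strand. The call was lost with a pseudocount of 5 FPKM (-0.53). Pde4c was nevertheless a small part of the family, 2.7% of the phosphodiesterase sum in the control library and 0.3% in the V617F library.

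Pde4d, the main phosphodiesterase gene, was at 53.2 and 80.2 FPKM (log2 ratio 0.58) and made up 50.4% and 56.2% of the summed level of 106 and 143 FPKM. About 1133 and 2003 fragments gave a ratio of 1.51 (counting interval from 1.40 to 1.62.) A second row named Pde4d, at chr13:109954109-109955963, starts 648 bases past the annotated end of the gene, was left out of the counts, and was at 8.95 and 11.6 FPKM (0.35). Pde4b was at 12.5 and 19.4 FPKM (0.59) and Pde4a at 4.95 and 7.13 FPKM (0.45). Pde3b, a phosphodiesterase inhibited by cGMP, was at 2.02 and 4.25 FPKM (0.80, and 1.04 with a pseudocount of 0.1 FPKM), and its paralog Pde3a at 5.14 and 4.99 FPKM. Of the high-affinity cAMP-specific enzymes outside the Pde4 family, Pde8a was at 1.90 and 3.27 FPKM (0.56), Pde7b at 12.1 and 12.8 FPKM, and Pde7a at 10.9 and 10.2 FPKM. Pde8b, which is not among the 52 genes, is given below with the other phosphodiesterases. On the deposited scale 6 of the 9 phosphodiesterases among the 52 lay above 0. After rescaling to the same sum 8 did, with Pde3a and Pde7a the ones that turned.

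CREB and its coactivators were within 2-fold throughout. Creb1 was at 19.5 and 18.6 FPKM (log2 ratio -0.06, above 0 under both rescalings). Crebbp, the acetyltransferase that binds phosphorylated CREB, was at 49.5 and 42.0 FPKM (-0.23). The CRTC coactivators, which move into the nucleus when cAMP is high, were at 40.5 and 27.9 FPKM for Crtc2 (-0.52), 28.1 and 21.8 FPKM for Crtc3 (-0.35) and 11.1 and 9.95 FPKM for Crtc1 (-0.14). Crtc1 was above 0 after rescaling to the same sum. Crem, a CREB relative whose ICER form is induced by cAMP, was at 5.77 and 7.69 FPKM (0.36).

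CREB binds the palindrome TGACGTCA, the full cAMP response element, which reads alike on both strands and was searched from 250 bases before to 50 bases after each gene start in RefSeq's promoter windows (GRCm38.p6). Of the 52 genes, 35 matched the promoter table and 1 of them, Prkar1a, held these letters, or 2.86%, beside 2.03% of all 27025 genes in the table. Of the other pathway genes described below, 93 matched and 6 held the letters, or 6.45%. These include 21 genes picked as CREB family or known cAMP-responsive, 2 of them with the letters, so the choice of genes bears on that share. A match describes the letters only. The 7 stretches are shown, 5′ to 3′ with the element in capitals, because they set the classic cAMP-driven promoters of Th, Sst and Areg beside the expressed genes Prkar1a, Rap1b and S1pr2.
Prkar1a, chr11:109650889-109650918, plus strand: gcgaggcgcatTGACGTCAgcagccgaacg
Rap1b, chr10:117845998-117846027, minus strand: ggctgaacgccTGACGTCAaggcgacaccg
S1pr2, chr9:20976956-20976985, minus strand: taagagagctgTGACGTCAcgcggccgtga
Slc18a2, chr19:59260863-59260892, plus strand: agcgctgtccgTGACGTCAgagccggactg
Th, chr7:142900022-142900051, minus strand: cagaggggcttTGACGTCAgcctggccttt
Sst, chr16:23890874-23890903, minus strand: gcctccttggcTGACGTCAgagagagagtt
Areg, chr5:91139527-91139556, plus strand: gggctggtccgTGACGTCAcgggcggtggc

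Of these 7 genes, Prkar1a alone had a log2 ratio below 0 on the deposited scale, and it lay above 0 after rescaling to the same sum (0.08). Prkar1a and Rap1b, which encodes a small GTPase acting below the cAMP-activated exchange factors, lay within 2-fold, with Rap1b at 33.2 and 35.6 FPKM. S1pr2, a sphingosine-1-phosphate receptor, was at 1.09 and 6.87 FPKM (log2 ratio 1.91). Slc18a2, the vesicular monoamine transporter, was at 2.55 and 4.05 FPKM (0.51). Th, which encodes the rate-limiting enzyme of catecholamine synthesis, and Areg, which encodes amphiregulin, were listed at 0 in both libraries, and Sst, the somatostatin gene, at 0 and 0.441 FPKM.

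The anchoring proteins and the exchange factor lay within 2-fold. Akap13, a large scaffold that binds PKA, was at 83.5 and 76.8 FPKM (log2 ratio -0.12, above 0 after rescaling to the same sum). Akap12, an anchor that binds beta-adrenergic receptors and PKA, was at 13.0 and 14.7 FPKM (0.16). Rapgef3, which encodes EPAC1, the cAMP-gated activator of Rap proteins, was at 7.24 and 6.06 FPKM (-0.22).

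Other genes around the pathway were taken from 8 lists of 116 genes, of which 112 had a row and are counted. Of these, 11 were at least 2-fold higher in the V617F library (9.82%) and 6 lower (5.36%), beside the 6.24% and 5.42% of all protein-coding genes; after rescaling to the same sum the split was 17 higher and 5 lower, beside 8.17% and 4.20% of all protein-coding genes. The median log2 ratio was 0.08. Among the other receptors that raise or lower cAMP, 3 of 28 were higher and 0 lower: S1pr2, the prostacyclin receptor gene Ptgir (0.532 and 4.01 FPKM) and Vipr2 (0.290 and 3.84 FPKM), a receptor for vasoactive intestinal peptide. The highest of that list, S1pr3, was at 21.4 and 18.9 FPKM, and Pth1r, the parathyroid hormone receptor, whose locus overlaps Myl3, at 17.1 and 11.0 FPKM. Of 11 other G protein subunits, 2 were higher and 0 lower. These were Gng2 (0.322 and 4.04 FPKM) and Gnaz, which was listed at 0 in the control library and at 1.74 FPKM and whose locus overlaps Rsph14. Gnb1, the highest, was at 366 and 258 FPKM. Of 12 other receptor kinases and RGS proteins, Rgs18 was higher (1.80 and 11.2 FPKM) and Grk4 lower (21.7 and 9.17 FPKM), the latter within 2-fold after rescaling to the same sum. Rgs5, a pericyte marker, led that list at 115 and 183 FPKM. Gnaz and Rgs18, both known from platelets, were higher in the library whose megakaryocyte markers summed to 53.8 FPKM against 8.31 FPKM, and the part of those cells was not tested.

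**Figure D4:**
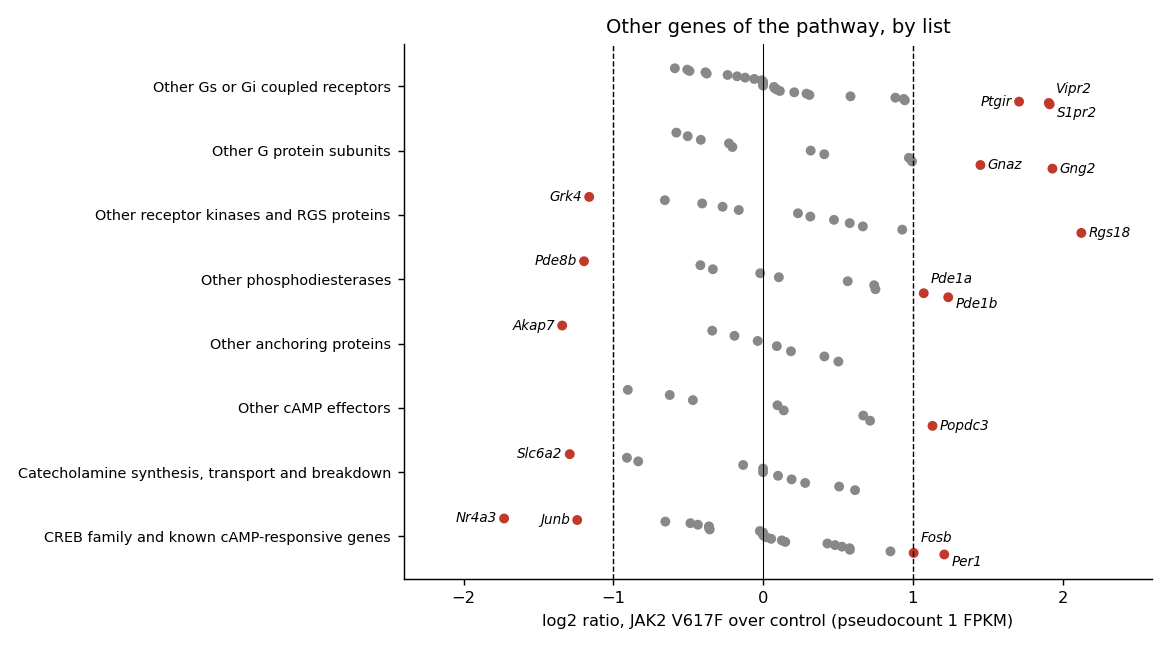
Each point is 1 gene's log2 ratio of JAK2 V617F over control (pseudocount of 1 FPKM, 1 library each), in rows by list, with dashed lines at 2-fold and called genes in red. Of the 112 genes, 11 lie to the right of the dashed lines and 6 to the left.

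Of 10 other phosphodiesterases, 2 calmodulin-activated ones were higher, Pde1a (5.66 and 13.0 FPKM) and Pde1b (0.420 and 2.34 FPKM), and 1 was lower, Pde8b (7.46 and 2.70 FPKM). Pde6d was the highest at 36.2 and 35.7 FPKM. Of 8 other anchoring proteins, Akap7 was lower (23.4 and 8.62 FPKM), and Akap9 led at 61.7 and 70.4 FPKM. Of 8 other cAMP effectors, Popdc3 was listed at 0 in the control library and at 1.19 FPKM, the list's only call. Rap1a, at 44.9 and 32.2 FPKM, was the highest of the list in the control library, and Rap1b, given above, in the V617F library. Rapgef4, which encodes EPAC2, was within 2-fold, at 34.5 and 18.0 FPKM (log2 ratio -0.90).

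Among 11 genes of catecholamine synthesis, transport and breakdown, 1 was lower and 0 higher. Slc6a2, the noradrenaline transporter, was at 2.24 FPKM in the control library and 0.326 FPKM in the V617F library (log2 ratio -1.29). The synthesis genes Th and Pnmt were listed at 0 in both libraries, and Dbh at 0 and 0.0718 FPKM. Of the monoamine oxidase genes, Maoa was at 2.50 and 0.967 FPKM and Maob at 3.77 and 4.79 FPKM.

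Of 24 CREB family and known cAMP-responsive genes, 2 were higher and 2 lower, and the list's median was 0.01 on the log2 scale. Per1, a clock gene with cAMP-induced transcription, was higher (5.98 and 15.1 FPKM), as was Fosb (8.73 and 18.5 FPKM). The orphan receptor gene Nr4a3 was lower (16.5 and 4.28 FPKM), as was Junb (37.1 and 15.1 FPKM). Within the Nr4a family, Nr4a1 was at 4.69 and 9.26 FPKM (0.85) and Nr4a2 at 5.06 and 5.08 FPKM, so its 3 genes did not share a direction. Cxcl12, the highest gene of the list, was at 891 and 694 FPKM (-0.36).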

How the data were processed

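Per the submitters' processing notes, the tools were cutadapt (version 1.2.1), TopHat2 (version 2.0.7), Bowtie2 (version 2.0.6) and Cufflinks, with the build GRCm38. The sources used here do not give the annotation release, the use of strand or any scaling between libraries. The authors deposited 1 FPKM value per gene and library. RNA was amplified before library preparation, per the labels' protocols, and no molecular identifiers are named. Members were matched by symbol, and rows naming several genes (401) were left out; a symbol with several rows was represented by the row with the widest locus. The log2 ratio of (FPKM + 1), mutant over control, was taken with no filter and called at 1 or -1; with 1 library per group no test was made. Protein-coding genes were taken from RefSeq (GRCm38.p6).

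Depth was estimated from 5570 genes with 1 GENCODE vM21 transcript at the same locus. FPKM times (length minus 160 nt) fell into steps of 0.190 and 0.162 at 1 kb, the offset being the sharpest of 31 tried. Members' fragments were then computed on the longest GENCODE transcript, a choice made after seeing the data, with exact (Clopper-Pearson) 95% intervals for ratios in scipy 1.17.1. The step fit was tested on simulated data.

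Members, lists and the naming rule were chosen with earlier results of these data known. The rule named all 52 members, the called genes of each other list and its highest gene (1 of these is not reported here); Pth1r, Grk5, Grk6, Rapgef4, Maoa, Maob, Dbh, Pnmt, Nr4a1, Nr4a2 and the genes with the CREB element were added after their values were seen. The 6 alternatives changed the pseudocount, filter or scaling.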

Additional observations from a re-analysis of the deposited data

How the results depend on the processing

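Each count is given beside the share of all protein-coding genes called under the same setting. With a pseudocount of 0.1 FPKM and a filter of 1 FPKM, which keeps 44 of the pathway genes, 3 were at least 2-fold higher (Adra1b, Adra1d and Pde3b; 13.6% of all) and 2 lower (Adcy3 and Pde4c; 11.3%). After rescaling to the same sum 3 of 52 were higher (Adra1b, Adra1d and Prkar2a; 8.17%), and after rescaling to a median ratio of 1 it was 1 (Adra1b; 7.14%). With a pseudocount of 5 FPKM (1.89%), or a filter of 5 FPKM (7.94%), 0 were lower; the filter removed Pde4c and the pseudocount took it to -0.53. The median log2 ratio of the pathway genes was -0.0500 with the filter of 5 FPKM, which leaves 34 genes, and 0.21 after rescaling to the same sum. Other pathway genes at least 2-fold higher numbered 1 of 112 with a pseudocount of 5 FPKM (1.46%), against 11 of 112 (6.24%). They numbered 17 after rescaling to the same sum (8.17%) and 14 after rescaling to a median ratio of 1 (7.14%). With a filter of 5 FPKM they were 5 of the 61 genes kept (6.70%). With a pseudocount of 0.1 FPKM and a filter of 1 FPKM they were 16 of 84 (13.6%). Other pathway genes at least 2-fold lower numbered 3 of 112 with a pseudocount of 5 FPKM (1.89%), against 6 of 112 (5.42%). With the pseudocount of 0.1 FPKM and filter of 1 FPKM they were 8 of 84 (11.3%). The filter of 1 FPKM left every one of these counts as it was, but out of 44 pathway genes and 84 other pathway genes. The shares of all protein-coding genes called were larger under that filter. The share called higher was above the 6.24% found without a filter, and the share called lower was 8.69%, against 5.42%. Unchanged counts there are therefore not an unchanged comparison with all protein-coding genes. No paired analysis was possible because there was 1 library per genotype, and for the same reason no replicate could be left out. Depth limits the receptors most: apart from Adra2a, each rests on fewer than 30 estimated fragments a library.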

Other observations

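Ratios between roles within a library do not depend on the scaling between libraries. The comparisons given here were chosen after the values were seen, have no replicate, and concern transcripts only. The summed level of the 9 cAMP phosphodiesterases among the 52 genes was 1.69 times that of the adenylyl cyclases in the control library. In the V617F library it was 2.43 times. The inhibitory alpha subunits Gnai1, Gnai2 and Gnai3 together stood at 1.01 times Gnas in the control library and 0.664 times in the V617F library. PKA regulatory subunits were at 2.92 times the catalytic subunits in the control library and 2.11 times in the V617F library. The arrestins were at 3.67 times the receptor kinases Adrbk1 and Adrbk2 in the control library and 2.73 times in the V617F library. That ratio leaves out the kinases Grk4 (21.7 and 9.17 FPKM), Grk6 (17.0 and 10.4 FPKM) and Grk5 (3.40 and 5.11 FPKM). Its difference between the libraries therefore depends on which kinases are counted. Transcripts of alpha-2 receptors, most of them Adra2a, were 1.89 times those of alpha-1 receptors in the control library and 1.15 times in the V617F library.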
